A study of Caenorhabditis elegans with 6 samples.

Results

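The genes described here encode the factors that start and drive protein synthesis on the ribosome, taken as all protein-coding genes of the Caenorhabditis elegans annotation whose symbol begins with eif-, eef- or ife-. The rule finds 36 genes among 19971, and it uses names only, not measured values. Initiation factors bring the initiator tRNA, the messenger RNA and the ribosomal subunits together at the start codon, and elongation factors then deliver each aminoacyl-tRNA and move the ribosome along. Because every growing cell needs them, most of these genes are broadly expressed, and in worm embryos broadly expressed genes mostly lie in the interior of the nucleus while the arms of the chromosomes touch its edge.

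Contact with the nuclear edge was measured by DNA adenine methyltransferase identification (DamID). Dam, a bacterial enzyme that methylates the A of GATC, was fused to EMR-1, the worm emerin in the inner nuclear membrane, and the methylated DNA near it was amplified and sequenced. The 3 Dam::EMR-1 libraries came from strain BN1470 and the 3 GFP::Dam libraries, the untethered control, from strain BN1465, both labelled wild type, so the strain and the construct cannot be told apart. The DNA was taken from embryos of adults grown for 72 h at 20 °C, and the labels name EMS, the founder cell of intestine and parts of pharynx and muscle, as the cell type. DamID gives no expression markers against which that name could be checked. The ratios are log2 of Dam::EMR-1 over GFP::Dam, a direction that rests on the naming of the series' tables, since their headers do not say which group is on top. Depth was 15719682 to 22407988 reads in Dam::EMR-1 and 16278015 to 17535839 in GFP::Dam. The labels do not say whether replicates were grown separately, so the spread behind each p-value may be technical only.

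The deposited ratios were averaged per gene over listed GATC sites between 500 bp before and 500 bp after the annotated body. Genes with at least 60 reads over the 6 libraries were tested, 34 of the 36 here and 18648 in all. Of those left out, eif-2gamma, the subunit of eIF2 that binds GTP and the initiator tRNA, had 1 listed site with 12 reads, and ife-2 had no listed site. Just inside the minimum were eif-3.J with 96 reads and eef-1B.2 with 126.

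Most translation factor genes were low in Dam::EMR-1. Of the 34 genes tested, 24 were depleted and 0 were enriched by limma at a Benjamini-Hochberg adjusted p of 0.05 over all genes, while 27.2% of all genes were depleted and 30.2% enriched. Each deposited ratio divides libraries of one replicate number, so the limma p-values rest on that pairing. A different statistic, edgeR on summed reads, called 16 depleted without a replicate block and 17 with it. Of all genes, 17.5% and 14.7% were depleted in those fits. The median ratio was -3.39, against 0.31 over all genes, and the medians of the replicates were -3.87, -3.08 and -3.18. All 3 replicate ratios lay below 0 in 26 of the 34 genes, against 34.8% of all genes, and they lay above 0 together in 0 of them. At an unadjusted p of 0.05 the enriched genes were also 0, the smallest limma p among the 4 genes with a ratio above 0 being 0.24, and DESeq2 on summed reads gave 0. The depleted genes ranged from -7.72 in eif-6 to -2.51 in eif-2A.

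**Figure D1:**
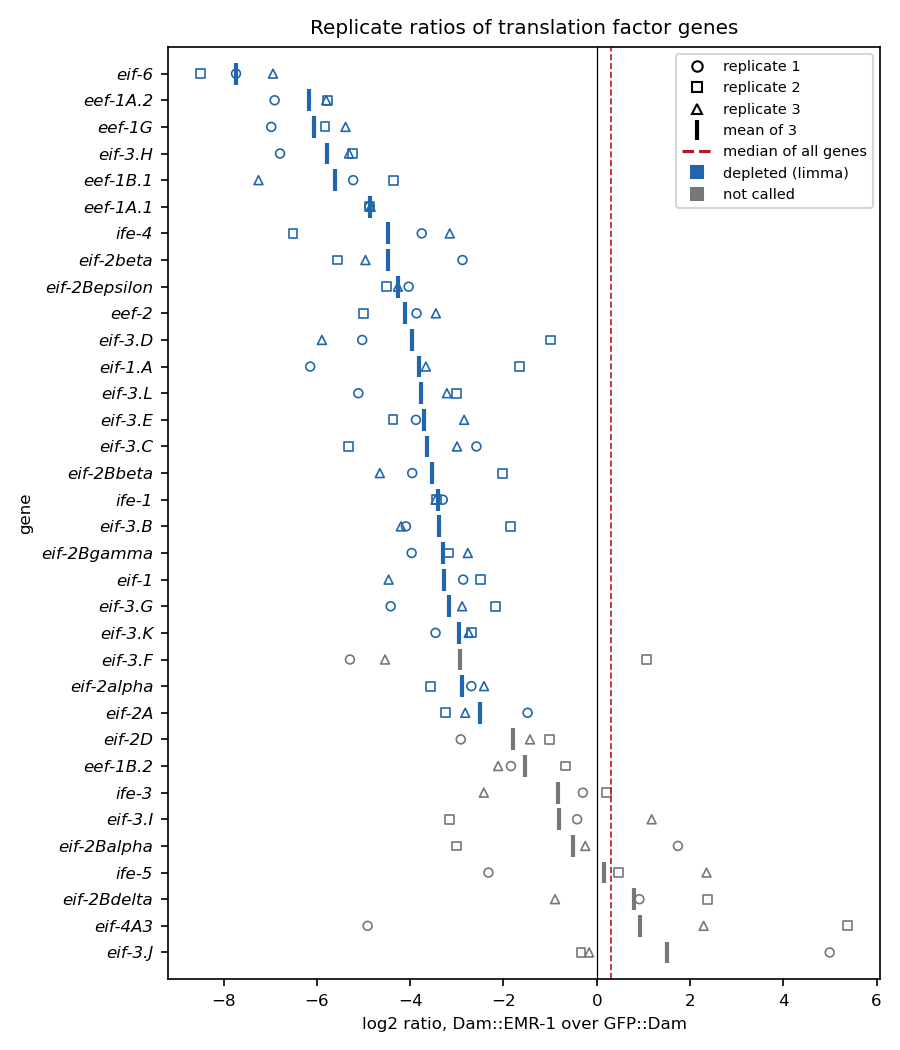
Log2 ratio of Dam::EMR-1 over GFP::Dam (x axis) for the 34 translation factor genes tested (y axis). Open symbols are the 3 replicates, bars their mean, blue the 24 genes depleted in limma and grey those not called, and the dashed line marks the median of all genes at 0.31. All replicates of the depleted genes lie to the left of 0.

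The factors that ready the small ribosomal subunit were low in both measured cases, and 27.2% of all genes were depleted. eif-1.A, whose product helps scan for the start codon, had replicate ratios of -6.14, -1.65 and -3.66 (mean -3.82 ± 2.25 SD, n = 3; limma, adjusted p = 0.0067). eif-1, which guards the choice of start codon, had a mean of -3.27 ± 1.05 (SD, n = 3; limma, adjusted p = 0.0070). The reads of eif-1.A overlapped between groups, at 0, 257 and 5 in Dam::EMR-1 and 597, 163 and 400 in GFP::Dam, and its call did not hold without replicate 1 (limma, ratio -2.66, adjusted p = 0.055), in edgeR without a block (0.27) or in DESeq2 (0.17). That of eif-1 did not hold without replicate 3 (limma, ratio -2.68, adjusted p = 0.052) or in edgeR with the replicate block (0.059).

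Within eIF2, which carries the initiator tRNA, both tested subunits were depleted, against 27.2% of all genes. eif-2beta, at I 8026615 to 8027792 of WBcel235, had replicate ratios of -2.88, -5.56 and -4.96 (mean -4.47 ± 1.41 SD, n = 3; limma, adjusted p = 0.0013). Dam::EMR-1 gave 8, 32 and 42 reads and GFP::Dam 367, 727 and 501, so the groups did not overlap. eif-2alpha, the subunit whose phosphorylation slows initiation under stress, had a mean of -2.89 ± 0.60 (SD, n = 3; limma, adjusted p = 0.0092). Its call did not hold in edgeR with the replicate block (adjusted p = 0.071) or in edgeR with total-read scaling and no block (0.075). Of the alternative carriers of initiator tRNA, eif-2A was depleted at -2.51 ± 0.92 (SD, n = 3; limma, adjusted p = 0.0060), and eif-2D had -1.79 ± 1.00 and did not pass (limma, adjusted p = 0.068). eif-2D passed as depleted from gene-body sites alone (-2.23, adjusted p = 0.047), with 2000 bp flanks (-1.89, 0.014) and with a pseudocount of 0.1 (-3.28, 0.032).

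eIF2B, the exchange factor that recharges eIF2 with GTP, was split. The catalytic subunit gene eif-2Bepsilon had -4.27 ± 0.24 (SD, n = 3; limma, adjusted p = 0.00088), eif-2Bbeta -3.54 ± 1.36 (adjusted p = 0.0093, and 0.051 without replicate 3) and eif-2Bgamma -3.30 ± 0.61 (limma, adjusted p = 0.0038). The genes eif-2Balpha and eif-2Bdelta were not called. In eif-2Balpha, at III 9543119 to 9544404, the replicates were 1.74, -2.999 and -0.25 (mean -0.50 ± 2.38 SD, n = 3; limma, adjusted p = 0.67), and in eif-2Bdelta, at V 9513824 to 9517649, they were 0.92, 2.37 and -0.89 (mean 0.80 ± 1.64 SD, n = 3; limma, adjusted p = 0.50). Both crossed 0 between replicates. Whether these subunit genes differ from the other 3 was not tested.

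eIF3 is the large scaffold that joins the small subunit to the messenger RNA, and 11 of its subunit genes carry the prefix. Of these 8 were depleted, against 27.2% of all genes, with a median of -3.38 over all 11. The lowest was eif-3.H, at I 4444719 to 4446613, with replicates of -6.79, -5.24 and -5.31 (mean -5.78 ± 0.88 SD, n = 3; limma, adjusted p = 0.00014). It had 12, 88 and 60 reads in Dam::EMR-1 against 1368, 1169 and 1015 in GFP::Dam, without overlap. eif-3.D, for the subunit that can contact the cap in human cells, had a mean of -3.97 ± 2.62, eif-3.L -3.77 ± 1.16, eif-3.E -3.70 ± 0.78 and eif-3.B, for a core subunit, -3.38 ± 1.33 (SD, n = 3; limma, adjusted p = 0.0064, 0.0016, 0.0020 and 0.0032).

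The call was lost in 3 of 17 alternatives in eif-3.D, in 2 in eif-3.L and in 1 in eif-3.B. The remaining depleted eIF3 genes, eif-3.C, eif-3.G and eif-3.K, lost theirs in 3 or more. eif-3.C had -3.63 ± 1.48, with an adjusted p in limma of 0.0082 that became 0.058 without replicate 2 and 0.11 in the gene body alone. Its 304 reads were all from GFP::Dam, 61, 163 and 80, and none came from a Dam::EMR-1 library. Taking 3 reads per library as the floor for that group, it was at least 36.3-fold lower in Dam::EMR-1, and the ratio itself depends on the pseudocount. eif-3.G had -3.16 ± 1.14 and eif-3.K -2.96 ± 0.43 (SD, n = 3; limma, adjusted p = 0.0084 and 0.0093), with ratios of -2.53 and -2.71 and adjusted p of 0.064 and 0.051 without replicate 1. With 2000 bp flanks eif-3.G had -1.62 (limma, adjusted p = 0.067). eif-3.K lost its call in 7 of 17 alternatives, among them the gene body alone (limma, adjusted p = 0.058), edgeR without a block (0.18) and DESeq2 (0.075), and its libraries overlapped between groups.

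Not called among eIF3 genes were eif-3.F, eif-3.I and eif-3.J. eif-3.F had replicates of -5.29, 1.07 and -4.54 (limma, adjusted p = 0.065), and without replicate 2 its ratio of -4.91 passed (adjusted p = 0.0057). eif-3.I, at I 2485861 to 2489787, had -0.42, -3.16 and 1.18 (mean -0.80 ± 2.19 SD, n = 3; limma, adjusted p = 0.45). eif-3.J, for a loosely bound subunit, rested on 1 site whose 96 reads included 95 from Dam::EMR-1 replicate 1, and its mean of 1.50 ± 3.03 (SD, n = 3) comes from that library.

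The eIF4E genes encode proteins that bind the cap of messenger RNA. Of the 4 tested 2 were depleted, against 27.2% of all genes. ife-4, the worm relative of mammalian 4EHP, at X 1104212 to 1106246, had replicate ratios of -3.75, -6.51 and -3.15 (mean -4.47 ± 1.79 SD, n = 3; limma, adjusted p = 0.00066). Its reads were 559, 8 and 102 in Dam::EMR-1 and 2312, 3343 and 3108 in GFP::Dam, every one of the latter higher. ife-1, which encodes a germline isoform found in P granules, at III 13343417 to 13344618, had -3.30, -3.43 and -3.46 (mean -3.39 ± 0.08 SD, n = 3; limma, adjusted p = 0.0037). Its 3 ratios were close although the read numbers were not, at 3, 105 and 4 in Dam::EMR-1 and 163, 957 and 245 in GFP::Dam.

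The other eIF4E genes were not called. ife-5, another germline isoform, at II 12280660 to 12284139, had -2.32, 0.46 and 2.35 (mean 0.17 ± 2.35 SD, n = 3; limma, adjusted p = 0.89). Its reads spread from 13 to 736 in Dam::EMR-1 and from 69 to 260 in GFP::Dam, so the groups overlapped. ife-3, the isoform closest to the general eIF4E of mammals, starts at position 6584 of chromosome V and ends at 7829, near the chromosome's left end. Its replicate ratios were -0.30, 0.21 and -2.42 (mean -0.83 ± 1.40 SD, n = 3; limma, adjusted p = 0.37). Its summed reads went the other way, at 829, 586 and 870 in Dam::EMR-1 against 257, 203 and 501 in GFP::Dam, and it was the only one of the 34 genes in which each Dam::EMR-1 library lay above each GFP::Dam library after scaling by depth.

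The lowest gene by mean ratio was eif-6, for the factor that binds the large ribosomal subunit and keeps it from joining too early. At I 12968946 to 12970235, it had replicate ratios of -7.73, -8.50 and -6.94 (mean -7.72 ± 0.78 SD, n = 3; limma, adjusted p = 1.77e-05), and 0.247% of all genes tested had a lower ratio. Dam::EMR-1 gave 5, 4 and 39 reads and GFP::Dam 1538, 3362 and 2877. In other fits eif-6 was not the lowest. In edgeR without a block it had -8.05, above eif-3.C at -10.2 and eef-1A.2 at -9.82. With 2000 bp flanks it had -4.40 in limma, above eef-1A.2 at -6.07. eif-4A3 is named for its kinship to the helicase eIF4A but works in the exon junction complex. It had 2 sites and replicates of -4.91, 5.38 and 2.29, too scattered to be called (mean 0.92 ± 5.28 SD, n = 3; limma, adjusted p = 0.64), and without replicate 1 its ratio of 3.84 passed as enriched (adjusted p = 0.021).

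Elongation factor genes were depleted in 5 of 6 cases, against 27.2% of all genes, with a median of -5.24. Both genes for eEF1A, the GTPase that brings aminoacyl-tRNA to the ribosome, were among them. eef-1A.2, at X 7823654 to 7825769, had ratios of -6.90, -5.77 and -5.80 (mean -6.16 ± 0.65 SD, n = 3; limma, adjusted p = 1.73e-05). It had the most reads of all 34 genes, 26175, and held 21.6% of their summed GFP::Dam level. In sites whose reads could be assigned to libraries, it had 5, 4 and 29 reads in Dam::EMR-1 and 6876, 5157 and 9418 in GFP::Dam. eef-1A.1, at III 6970026 to 6971712, had -4.87, -4.87 and -4.85 (mean -4.86 ± 0.01 SD, n = 3; limma, adjusted p = 0.00017), with 14, 2 and 32 reads against 1262, 2532 and 1765. In neither gene did the groups overlap.

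From general knowledge the coding sequences of the eEF1A genes are closely similar, though they were not compared here. Reads inside the bodies may therefore not be assignable to one of them with certainty. Sites outside the annotated bodies had a mean ratio of -6.38 over 3 sites beside eef-1A.1 and of -4.27 over 1 site beside eef-1A.2. The value in the flanks was thus below 0 at both.

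Genes for the exchange factor that recharges eEF1A were depleted in part. eef-1G, for its structural gamma subunit, at V 10965719 to 10967922, had -6.98, -5.82 and -5.38 (mean -6.06 ± 0.82 SD, n = 3; limma, adjusted p = 6.05e-05), with 3, 46 and 29 reads in Dam::EMR-1 and 3003, 2282 and 1617 in GFP::Dam. eef-1B.1, for an exchange subunit, at III 7972382 to 7973386, had -5.22, -4.36 and -7.25 (mean -5.61 ± 1.49 SD, n = 3; limma, adjusted p = 0.00030). Its Dam::EMR-1 reads were uneven, 1, 247 and 3, yet each library stayed below the 588, 765 and 1497 of GFP::Dam after scaling. eef-1B.2 had -1.54 ± 0.77 on 126 reads and did not pass (SD, n = 3; limma, adjusted p = 0.17). eef-2, for the factor that moves the ribosome on by one codon, had -4.11 ± 0.81 over 21 sites (SD, n = 3; limma, adjusted p = 0.000415). In sites whose reads could be assigned, its Dam::EMR-1 reads were uneven, at 8, 16 and 693. GFP::Dam had 1731, 2199 and 2575 there. The call of eef-2 did not hold in edgeR without a block (adjusted p = 0.093).

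Read levels in single libraries showed that both groups carried the difference. Reads per library were recovered from the ratios and the read sums, as described with the processing, and given as CPM, the reads per 1e6 reads of the library. Per kb of gene body and flanks, the median translation factor gene had 0.147, 0.780 and 0.918 CPM in the Dam::EMR-1 libraries, against 2.77, 3.20 and 2.99 CPM over all genes. In GFP::Dam it had 8.48, 7.99 and 11.5 CPM per kb, against 1.70, 1.56 and 2.26 CPM per kb. The median factor gene thus lay below the median gene in every Dam::EMR-1 library and above it in every GFP::Dam library.

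By single gene, on the scale of log2(CPM + 1), every Dam::EMR-1 library lay below every GFP::Dam library in 21 of the 34 genes, against 25.2% of all genes. The reverse held for 1 gene, ife-3, against 36.4% of all genes, and in 12 the groups overlapped. Exact permutation of the library labels (two-sided) cannot go below p = 0.1 with 3 libraries a group, the value of every gene without overlap. The libraries of one group spread more in Dam::EMR-1, where the median SD of a gene's level was 1.11, than in GFP::Dam, where it was 0.54 (n = 3 each). Of 102 values per group, 15 in Dam::EMR-1 and 4 in GFP::Dam were 0 reads.

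**Figure D2:**
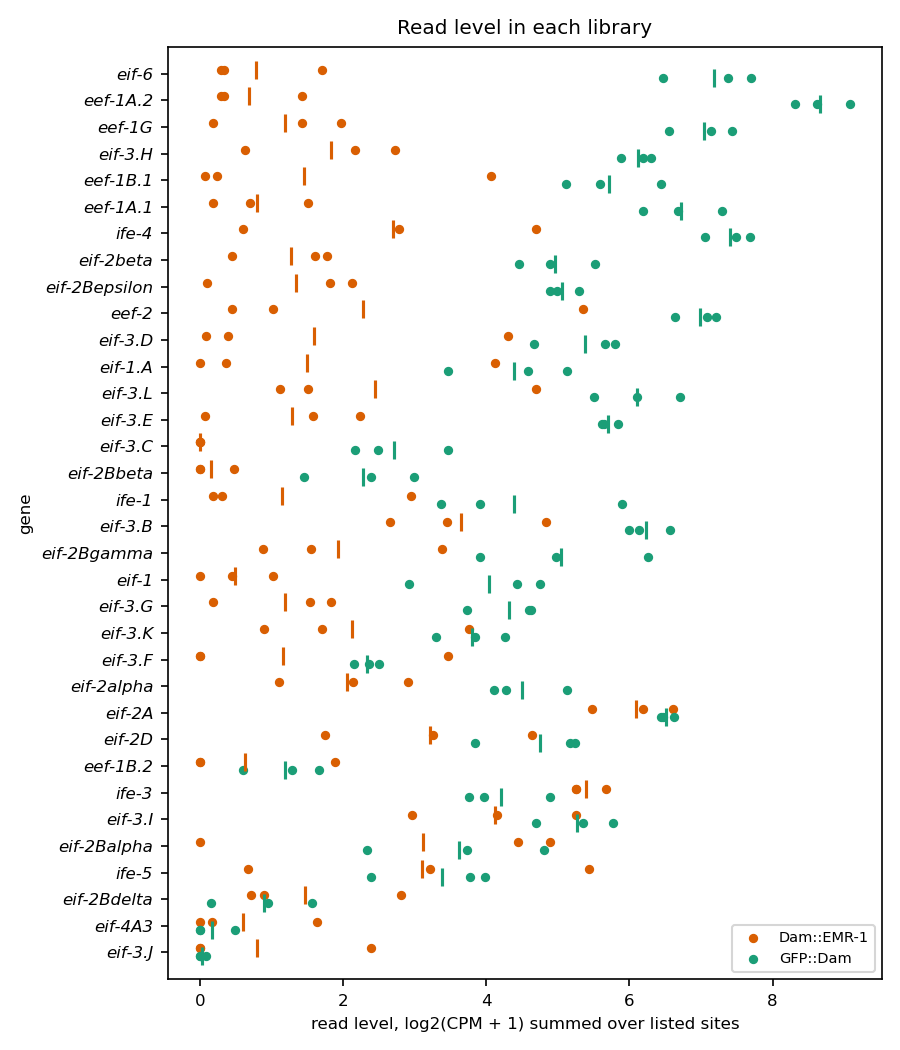
Read level of each gene in each library as log2(CPM + 1) summed over its listed sites (x axis), orange for the 3 Dam::EMR-1 and green for the 3 GFP::Dam libraries, with bars at the means. In 21 genes all orange points lie left of all green points, and in ife-3 they lie to the right.

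With reads summed per gene, edgeR's quasi-likelihood test called 16 of the 34 genes depleted and 0 enriched, against 17.5% and 17.7% of all genes. The 8 genes depleted in limma but not here were eef-2, eif-3.L, eif-2A, eef-1B.1, eif-3.D, ife-1, eif-1.A and eif-3.K, with adjusted p from 0.061 to 0.27 in edgeR and ratios below 0. DESeq2 called 21 depleted and 0 enriched, against 25.3% and 27% of all genes. In limma on the ratios, 21, 24 and 22 genes were depleted without replicate 1, 2 and 3, against 22.4%, 23.6% and 21.9% of all genes, and 1, 0 and 0 were enriched, against 23.6%, 25.4% and 25.6%. edgeR without a replicate block and with scaling by total reads called 11 depleted and 0 enriched, against 13.8% and 24% of all genes. Summing lets sites with many reads dominate, whereas the mean ratio weights all sites equally, and eif-2A was depleted by its mean ratio with summed levels that overlapped. It had 2157, 1131 and 758 reads in Dam::EMR-1 and 1710, 1424 and 1504 in GFP::Dam, and its levels of 6.09 ± 0.57 and 6.51 ± 0.10 overlapped (log2(CPM + 1), SD, n = 3).

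Position on the chromosome was not the same for all genes of the list. They lay on all chromosomes, 11 of the 34 on I, 10 on II, 5 on III, 4 on V and 2 each on IV and X. Chromosomes were cut by length into 3 equal segments, of which the middle one roughly matches the gene-dense centre. The middle segments held 16 of the genes, or 47.1%, against 38.4% of all genes. There 13 of 16 were depleted, with a median ratio of -3.87, beside 37.1% of all genes in these segments and a median of -1.02. In the outer segments 11 of 18 were depleted, with a median of -3.08, beside 20.9% of all genes and a median of 1.12.

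Relative to the median gene of its own segment, 31 of the 34 genes were lower, with a median difference of -2.80. The most distant was eif-6, in the right segment of chromosome I, whose difference from a segment median of 1.00 was -8.72. eif-1.A lay in the left segment of IV with a median of 1.46, and eif-1 in the left segment of II with a median of 1.62, and both were depleted there. The left segment of V, which holds ife-3, had the highest median among them, 2.09. At or above their segment were eif-4A3, eif-2Bdelta and eif-3.J, which had 428 reads or fewer.

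**Figure D3:**
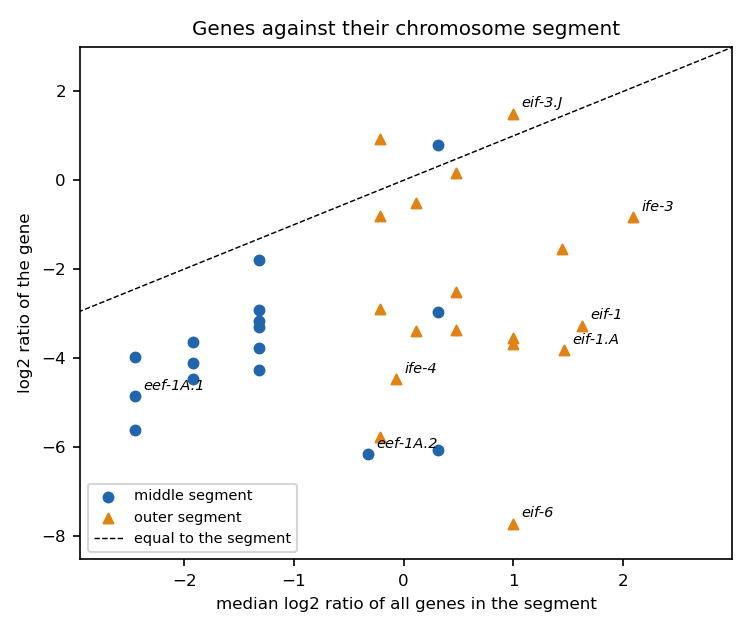
Log2 ratio of each gene (y axis) against the median log2 ratio of all genes in the same chromosome segment (x axis), circles for middle and triangles for outer segments. The dashed line marks equality, and 31 of the 34 genes lie below it.

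The ratio was lowest in and next to the genes and nearer to 0 beyond 20 kb. The mean over genes was -3.13 ± 0.30 in the gene bodies and -3.76 ± 0.39 in the first 0.5 kb on either side, where 27 of the 34 genes had a site (SD over 3 replicates). It was -1.94 ± 0.24 between 2 and 5 kb, -1.15 ± 0.16 between 10 and 20 kb and -0.49 ± 0.09 between 20 and 50 kb. Between 50 and 100 kb it was -0.55 ± 0.12, still below the 0.16 ± 0.09 around all genes. Around all genes the mean stayed between -0.11 and 0.19 at these distances. Coordinates without strand were used, so the side of the promoter was not told from the side of the gene's end. Worm genes are dense, and the window of 32 of the 34 genes overlapped another protein-coding gene. From sites in the body that lie in no other protein-coding gene, limma called 23 depleted and 0 enriched, against 23.1% and 27.3% of all genes, an alternative chosen after seeing the data. With 2000 bp flanks it called 28 of 35 depleted, against 32.6% of all genes, among them eif-2D, eif-3.F, eif-2Balpha (-1.98, adjusted p = 0.015) and eef-1B.2 (-2.13, adjusted p = 0.017).

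**Figure D4:**
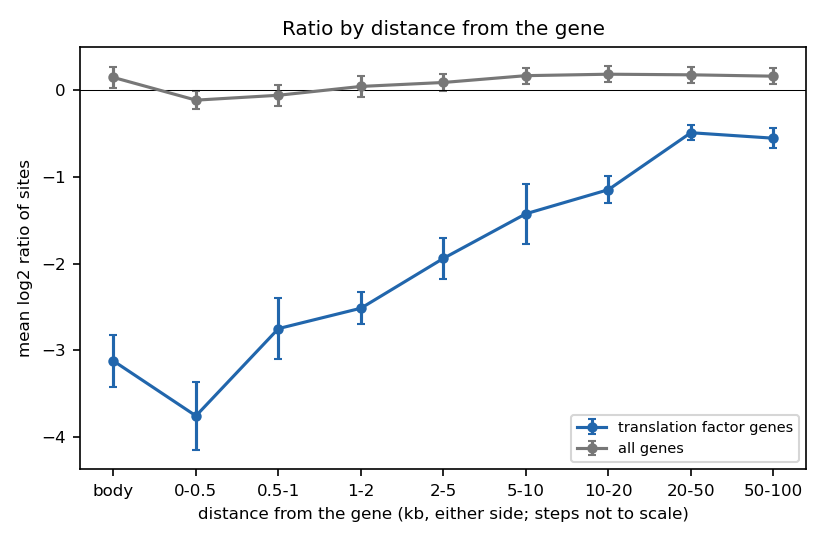
Mean log2 ratio of sites (y axis) by distance from the gene on either side (x axis, in steps that are not to scale), for the 34 translation factor genes in blue and all genes in grey. Points are means over genes and bars the SD of 3 replicates. The blue line is at -3.13 in the body, lowest at -3.76 within 0.5 kb and at -0.49 at 20 to 50 kb.

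Single sites told the same for most genes. The windows held 234 listed sites, and 175 of them, 74.8%, were below 0 in all 3 replicates, against 30.2% of all sites in the table. Above 0 in all 3 were 7, or 2.99%, against 27.1% of all sites. A site with equal reads in both libraries of a number lies 0.59, 0.34 and 0.16 below 0 in replicates 1 to 3, because the values hold a constant per column, and so does a site with no read in either. Of the sites with reads in each of the 3 pairs, 115 of 150 were below 0 in all replicates and 6 above. The 30.2% of all sites includes sites without reads in a pair, so it is no background for this count.

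In eif-6 the 5 sites had mean ratios between -9.80 and -6.49, and in eef-1A.2 all 11 sites lay between -9.87 and -2.96. The site of eef-1A.2 with the most reads, 10005, had -9.33. Both genes were thus low along their whole length. eif-2A was mixed, with 8 of 12 sites below 0 in all replicates, 1 above and 3 of both signs, from -7.42 to 1.83.

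ife-3 changed sign within its body. Of its 5 sites the outer 3 were below 0 in every replicate, with means of -5.80, -5.09 and -2.67. The last of them was sparse, with 0, 0 and 3 reads in Dam::EMR-1 and 53, 0 and 8 in GFP::Dam. Its replicate 2 value of -0.34 is only the constant of that column. The inner 2 were above 0 in every replicate, with means of 3.52 and 5.87 and with 1400 and 1078 of the gene's 3246 reads. The first had 447, 320 and 485 reads in Dam::EMR-1 and 41, 4 and 103 in GFP::Dam. Its gene ratio near 0 is therefore a mean of high and low sites. Of the 7 sites above 0 in all replicates over all the genes, 2 were in ife-3.

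**Figure D5:**
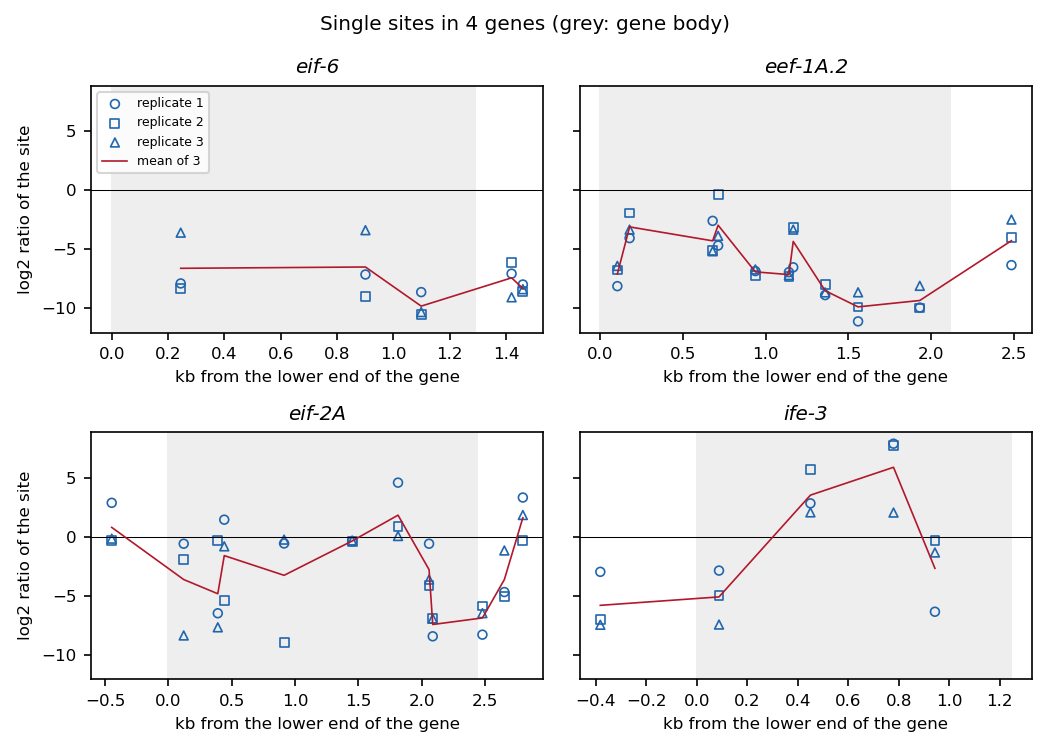
Log2 ratio of single GATC sites (y axis) by distance from the lower end of the gene in kb (x axis) in eif-6, eef-1A.2, eif-2A and ife-3. Open symbols are the 3 replicates, the line joins their means, and grey marks the gene body. All sites of eif-6 and eef-1A.2 lie below 0, while 2 sites in ife-3 lie above it in every replicate.

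The deposited table of 10-kb bins gave a second reading on a fixed grid, from the same libraries. Of the 36 bins with the lower end of a gene of the list, 24 were depleted and 1 was enriched in limma, against 25.2% and 28.4% of all bins. The lowest was that of eef-1A.1, at -7.52 ± 1.32, followed by that of eif-2Bgamma at -7.32 ± 0.83 (SD, n = 3; limma, adjusted p = 0.0012 for both). The genes without a test of their own lay in depleted bins, with -3.09 ± 1.40 for eif-2gamma and -2.82 ± 1.26 for ife-2, the latter on 256 reads (SD, n = 3; limma, adjusted p = 0.022 and 0.045). The enriched bin was that of eif-4A3, with 6.11, 8.07 and 5.45 in the 3 replicates (mean 6.54 ± 1.36 SD, n = 3; limma, adjusted p = 0.0024). This bin runs from I 620001 to 630000 and the gene from 629465 to 636348, so it holds mainly sequence beside the gene. The bin of eif-1.A had 0.84 ± 0.51 and was not called (SD, n = 3; limma, adjusted p = 0.29), while the gene itself was at -3.82. At an adjusted p of 0.01 the depleted bins numbered 13, against 14.2% of all bins, and without replicate 1, 2 and 3 they numbered 15, 18 and 16, against 19.3%, 19.8% and 17.5%. In each case 1 bin was enriched, against 15.5% of all bins at the stricter threshold and 21%, 22% and 18.7% without a replicate.

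Other genes, outside the naming rule, were listed from general knowledge of gene names as related to translation, so not each need be a translation factor. Of 44 listed symbols 36 were in the annotation, and 35 genes passed the read minimum and were tested. Of these 26 were depleted and 1 was enriched, against 27.2% and 30.2% of all genes, with a median ratio of -3.07. The lowest were pab-1, a poly(A)-binding protein (-6.50 ± 0.79), drr-2, the worm eIF4H (-6.48 ± 1.22), ifg-1, the eIF4G scaffold (-6.32 ± 0.78), and pab-2, a second poly(A)-binding protein (-6.16 ± 1.07; SD, n = 3; limma, adjusted p = 5.9e-05, 0.00012, 3.8e-05 and 0.00013). The enriched gene was dph-2, for an enzyme of the diphthamide pathway that modifies eEF2. At II 10702510 to 10714297 it had replicate ratios of 3.34, 3.19 and 2.91 over 34 sites (mean 3.15 ± 0.21 SD, n = 3; limma, adjusted p = 0.00044), while eef-2 itself was at -4.11.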

How the data were processed

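The deposited tables hold, per the file headers, a log2 ratio for each of 3 replicate numbers and a count of raw reads summed over libraries, for GATC sites and bins. The submitters' processing notes name ce11, which is WBcel235, and DESeq2, without their roles. Not given in the sources used here are the aligner, how repeated positions were handled and how ratios were formed. From the values, each ratio is log2 of (reads + 1) over (reads + 1) for libraries of one number, minus a constant per column. Whole reads were recovered to within 4e-12 (log2), uniquely for 90.2% of GATC sites holding 94.8% of reads, and other sites were left out of summed reads. Depth came from the 100-kb table, 99.9% of whose bins were solved. PCR duplicates cannot be told from molecules. The number of unused per-sample columns was 0.

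limma 3.58.1 was fitted to the 3 ratios with an intercept only, a trend on log2 reads and robust estimation. edgeR 4.0.16 (quasi-likelihood) and DESeq2 1.42.0 on summed recovered reads were alternatives. The limma fit and the edgeR fit without a block were tested on simulated data, DESeq2 was not. Gene positions came from the RefSeq table of WBcel235, which gives no strand. The genes, lists and tests were chosen with earlier results of these data known. Replicate values are given for enriched genes, the 8 lowest, the 4 nearest 0, and the eEF1A and eIF4E genes. Outside these classes they are also given for eif-1.A, eif-3.F and eif-4A3.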

Additional observations from a re-analysis of the deposited data

How the results depend on the processing

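The 24 depleted genes kept their direction under all 17 alternatives that gave a value for them, and 9 of them also kept their call in each. In several alternatives direction could not turn. A change of threshold, of read minimum or of limma's variance setting leaves the ratio as it was. Leaving out a replicate could not turn it either, since all replicate ratios of each depleted gene lay below 0. The count of depleted genes was 21 to 24 with a replicate left out and that of enriched genes 0 to 1, and the median ranged from -3.55 to -3.07. A pseudocount of 0.1 moved the median to -5.44 and one of 5 to -2.19. edgeR on summed reads gave 17 depleted genes and a median of -5.36 with the replicate block, where 14.7% of all genes were depleted and 11.8% enriched, and 16 and -3.73 with no replicate block. It gave 11 with total-read scaling. Scaling the deposited ratios by total reads raised them by 0.26 on average and left 24 depleted. The share of all genes depleted with that scaling was not counted, so this count has no background beside it. The pairing was checked on deviations from group means, whose correlation between libraries of one number was -0.032, -0.024 and -0.0092, against -0.0079 to 0.033 for other numbers, so these values give no sign of pairing, although the deposited ratios, and with them limma's p-values, take libraries of one number together. Depleted 10-kb bins fell to 13 at an adjusted p of 0.01 and to between 15 and 18 with a replicate left out.

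With 2000 bp flanks 28 genes were depleted, and calls were gained as well as lost. Direction turned only in genes that were not called. ife-3 had 0.41 in the gene body alone and from body sites in no other gene, 0.093 with 2000 bp flanks, 0.53, 0.49 and 1.16 in edgeR with the block, without it and with total-read scaling, and 0.46 in DESeq2. ife-5 had -0.044 with a pseudocount of 5, -0.84 in edgeR with the block and -0.02 in DESeq2. eif-2Bdelta had -0.53 with 2000 bp flanks and -0.27 with a pseudocount of 0.1, and eif-2Balpha 0.19 in edgeR with total-read scaling. With a replicate left out, the ratio ranged from -1.31 to 3.84 in eif-4A3, -1.79 to 0.38 in eif-3.I, -0.25 to 2.42 in eif-3.J, -0.93 to 1.41 in ife-5 and -1.62 to 0.75 in eif-2Balpha. The cause was not tested.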

Other observations

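Groups of genes that also serve protein synthesis were counted in the same fit, with no test between groups. In this fit 27.2% of all genes were depleted and 30.2% enriched. Of 76 cytosolic ribosomal protein genes 68 were depleted and 1 was enriched in limma, with a median ratio of -4.74. Of 33 aminoacyl-tRNA synthetase genes 19 were depleted and 0 enriched, with a median of -2.32. The translation factor genes, at -3.39, lay between these medians.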
